A study of Homo sapiens with 3 samples.

Results

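The circRNA profile of T24, a line that the labels class as bladder cancer, was set against that of SV-HUC-1, which they give as immortalized and from the urothelium. A circRNA was compared when it had at least 10 reads in either library, which kept 3847 (36.4%) of the 10562 circRNAs listed, from 2202 of 4231 host genes. Another library, from the bladder cancer line J82, was made in the same way and is given beside the others as a value only. No treatment, time point or genotype is given for any line. Each line is 1 library, so no difference below has a replicate check, and variation between cultures or preparations of a line was not measured.

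A circRNA forms when the spliceosome joins the end of an exon back to the start of the same or an earlier exon, so that the host gene's transcript yields a closed loop. The loop has no free ends and resists exonucleases, and RNase R digestion of the linear RNA enriches for it. The level of a circRNA depends on how much its host gene is transcribed, on how often the back-splice is made, and on how long the loop persists, and these values do not separate them. In bulk RNA, fewer cells that carry a circRNA and less of it per cell cannot be told apart. Urothelium is a layered epithelium held together by cadherin junctions and anchored by laminin-binding integrins. Epithelial transcription factors such as GRHL2 and splicing factors such as ESRP1 are known to maintain that state.

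Values are CPM, read counts scaled to the size of the library, and reads were recovered from them as described under the processing. Reads assigned to listed circRNAs came to 128055 in SV-HUC-1 and 108574 in T24, and the circRNAs compared held 80.1% and 79.6% of them. A single read equals 0.0201 CPM for SV-HUC-1 and 0.0234 CPM for T24. The ratio given for a circRNA is T24 to SV-HUC-1 in CPM, with an exact 95% counting interval (Clopper-Pearson) in parentheses. Where no read was counted on 1 side, 3 reads were put in as a floor for that library, and the ratio is written "at least". The floor allows for counting error in the library without reads alone. Reads of the other library enter as counted. A ratio written "at least" is therefore not a 95% limit and may lie above such a limit. Variation from any source other than counting is left out of both the intervals and the floors.

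T24 differed from SV-HUC-1 by 2-fold or more at 1874 circRNAs (48.7%). Of the 3847 compared, 823 (21.4%) reached 2-fold higher in T24 and 1051 (27.3%) reached 2-fold lower, on log2(CPM + 0.0234), where the added value is 1 read of T24. With Benjamini-Hochberg adjustment, a two-sided exact binomial test on reads called 1440 (37.4%) at an adjusted p under 0.05, of which 658 (17.1%) were higher and 782 (20.3%) lower. That test compares these libraries and not the lines. Of the circRNAs past 2-fold, 673 (17.5%) of the 3847 on the higher side and 808 (21.0%) on the lower side had a counting interval that excluded a ratio of 1.

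The minimum of 10 reads is 0.201 CPM in SV-HUC-1 and 0.234 CPM in T24. With no minimum 2598 were higher and 2913 lower, with a median log2 fold of -0.081. With 0.234 CPM as the minimum in both libraries, an alternative chosen after seeing the data, 823 were higher and 807 lower of 3419, since this setting takes circRNAs away on the side of SV-HUC-1 alone. The median log2 fold was -0.14 with the minimum in reads and 0.058 with the minimum in CPM. A circRNA that reached the minimum through 1 library alone was in part chosen by its direction. There were 1744 with at least 10 reads in both libraries, 805 with that number in T24 alone and 1298 in SV-HUC-1 alone. In the first set 200 (11.5%) were higher and 157 (9.00%) lower, and the median log2 fold was 0.088. In the other sets 623 of the 805 were higher and 894 of the 1298 lower. The library on the low side had 0 reads for 59 of the 805 and for 189 of the 1298. At the threshold, 407 circRNAs had exactly 10 reads in the higher library (median log2 fold -0.26) and were compared, and 473 had exactly 9 (median 0.046) and were not.

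**Figure D1:**
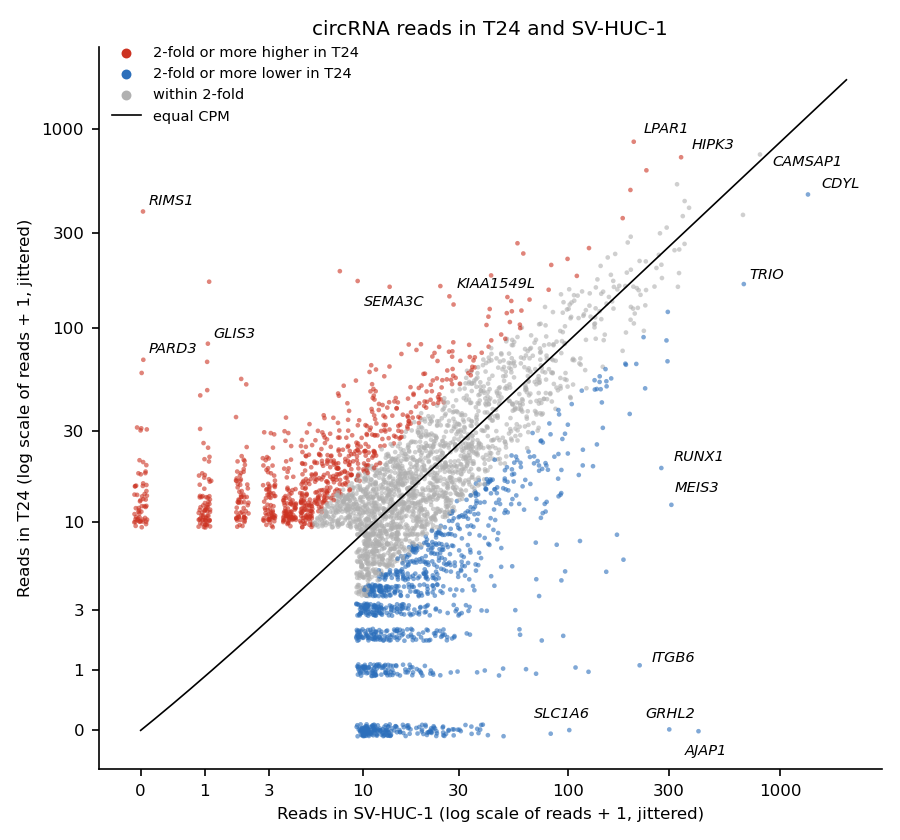
Reads of each circRNA compared in SV-HUC-1 (horizontal) and T24 (vertical), both on a log scale of reads + 1 with jitter, for the 3841 that lie off the Y chromosome. Red points reach 2-fold higher in T24 and blue points 2-fold lower, and the line marks equal CPM. Bands of points lie along 0 to 3 reads on both axes, and the most extreme are RIMS1 on the side of T24 and AJAP1 and GRHL2 on the side of SV-HUC-1.

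The highest circRNA of T24 relative to SV-HUC-1 came from RIMS1, a gene for an active zone protein of synapses that the series title names. Its hsa_circ_0132246 (chromosome 6, 73005639 to 73043538, plus strand, hg19) had 378 reads in T24 (8.85 CPM), 5 in J82 and 0 in SV-HUC-1, and was at least 147-fold higher in T24. Both other circRNAs of RIMS1 that reached the minimum, hsa_circ_0132241 and hsa_circ_0132244, had 11 and 10 reads in T24 and 0 in the other lines. The second of these ends at the same position as hsa_circ_0132246 and starts upstream of it, at 73001636. The circRNA next in rank, hsa_circ_0001946, has the circBase ID of CDR1as, which is known to bind miR-7. It had 1 SV-HUC-1, 12 J82 and 172 T24 reads, a ratio of 200.6 (35.5 to 7969).

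The mature miRNAs tied to these circRNAs by the title and by background knowledge are shown with the seed, bases 2 to 8, in capitals (RefSeq, GRCh38.p14). Their seeds differ. Neither circRNA sequence was read here, so no seed match was counted.
hsa-miR-433-3p: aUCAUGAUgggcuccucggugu
hsa-miR-7-5p: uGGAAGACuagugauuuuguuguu

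The title also names CCAR1, a coactivator in cell growth and apoptosis. Its circRNA hsa_circ_0002681 had 29 SV-HUC-1, 14 J82 and 39 T24 reads, a ratio of 1.57 (0.945 to 2.63). Its hsa_circ_0006272 had 9, 9 and 10 reads, a ratio of 1.30 (0.473 to 3.60). Both intervals took in 1. The third, hsa_circ_0018555, stayed under the minimum with 1, 6 and 3 reads. The host gene total was 39, 29 and 52 reads, a ratio of 1.56 (1.007 to 2.42), whose interval narrowly excluded 1 on the reported scaling. Under median-of-ratios scaling, which shifts every log2 fold by -0.07, the lower limit fell under 1.

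PARD3 encodes a scaffold of the apical polarity complex. A circRNA of it with no circBase ID, from 34661425 to 34667034 on the minus strand of chromosome 10, gave 68 T24 reads against 0 in each other line, at least 26.4-fold higher. The other 3 circRNAs of PARD3 compared had reads in every line. Its hsa_circ_0018168 had 38 SV-HUC-1 and 34 T24 reads, a ratio of 1.04 (0.637 to 1.70). A second without an ID had 12 and 12, and hsa_circ_0018184 had 3 and 23, a ratio of 8.94 (2.70 to 46.5).

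NAV3, or neuron navigator 3, gave a pair of circRNAs with 31 and 29 reads in T24, 4 and 13 in J82 and 0 in SV-HUC-1, at least 12.05- and 11.3-fold higher (hsa_circ_0003514 and hsa_circ_0002419). A circRNA of WSCD1 (hsa_circ_0107325) had 190 T24, 8 SV-HUC-1 and 0 J82 reads, a ratio of 27.7 (13.8 to 65.1). LOC284757 (hsa_circ_0001174) gave 32 T24 reads against 0 from SV-HUC-1 and J82, at least 12.4-fold higher. J82 was above T24 for GLIS3 and for ME3, a mitochondrial malic enzyme (hsa_circ_0023966, with 61 reads in J82, 21 in T24 and 0 in SV-HUC-1). PVRL3, or nectin-3, an adhesion molecule, had 20 T24, 15 J82 and 0 SV-HUC-1 reads (hsa_circ_0007315). GLIS3, a zinc finger factor, had 81 T24, 284 J82 and 1 SV-HUC-1 reads (hsa_circ_0002874), so that T24 stood 94.5-fold above SV-HUC-1 (16.5 to 3777).

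At the other end, the circRNA of AJAP1, a membrane protein of adherens junctions (hsa_circ_0009438, chromosome 1, 4771959 to 4772759, plus strand), gave 392 SV-HUC-1 reads (7.87 CPM) and none from J82 or T24. It was at least 112-fold lower in T24. That of SLC1A6, a glutamate transporter (hsa_circ_0109167, chromosome 19, 15072813 to 15073157, minus strand), gave 95 SV-HUC-1 reads and 0 elsewhere, at least 27.2-fold lower in T24. A circRNA of TNS4, a focal adhesion protein (no circBase ID), had 114 SV-HUC-1, 66 J82 and 1 T24 reads, and was 97.7-fold lower in T24 (17.2 to 3894).

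The circRNA of the phosphatase gene PPP1CB (hsa_circ_0119704) had 129 SV-HUC-1, 7 J82 and 1 T24 reads and was 110.6-fold lower in T24 (19.5 to 4402). LRP11, a receptor-like membrane protein (hsa_circ_0007771), had 75, 99 and 1 reads in SV-HUC-1, J82 and T24, and was 64.3-fold lower in T24 (11.2 to 2573). GDA, or guanine deaminase (hsa_circ_0087200), had 37, 10 and 0, at least 10.6-fold lower in T24. For LRP11 the J82 library lay above SV-HUC-1 in CPM, and for AJAP1 and SLC1A6 it had 0 reads as T24 did.

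**Figure D2:**
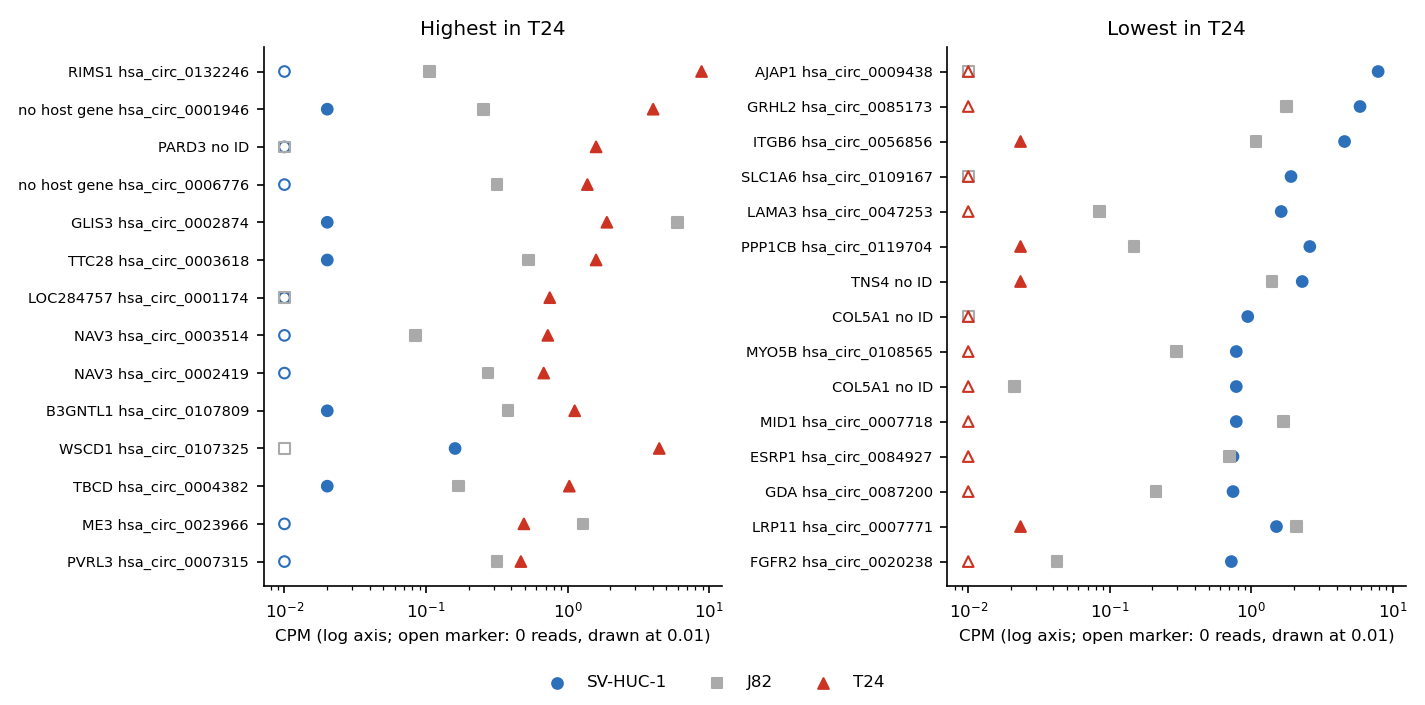
CPM (log axis) of 14 of the 15 circRNAs highest and the 15 lowest in T24 relative to SV-HUC-1, in SV-HUC-1 (circles), J82 (squares) and T24 (triangles), 1 library each. Open markers stand for 0 reads and are drawn at 0.01. T24 and SV-HUC-1 lie far apart in every row, as the choice of circRNAs fixes, while J82 runs from 0 reads (AJAP1, PARD3) to above both (GLIS3, LRP11).

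Among circRNAs with at least 10 reads in both libraries, counting error was smaller. The highest ratio in T24 was that of SEMA3C, a secreted semaphorin that guides cell and axon migration (hsa_circ_0004365), with 13 SV-HUC-1, 155 J82 and 166 T24 reads, 14.9-fold higher (8.47 to 28.6). KIAA1549L (hsa_circ_0021609) had 26, 3 and 156 reads and was 6.998-fold higher (4.60 to 11.05). SBNO2, a transcriptional coregulator (hsa_circ_0009130), had 26, 147 and 146 (6.55-fold, 4.29 to 10.4), so that J82 and T24 stood close together there. DOCK4, an activator of Rac (hsa_circ_0005937), had 11, 1 and 61 reads, a ratio of 6.47 (3.37 to 13.6).

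STK39, a kinase that controls ion cotransporters (hsa_circ_0003279), was 6.15-fold higher (3.20 to 13.0), and NALCN, a sodium leak channel (hsa_circ_0099758), 6.04-fold (3.14 to 12.8). DCBLD2, a neuropilin-like receptor (hsa_circ_0066631), had 27 SV-HUC-1, 26 J82 and 135 T24 reads, 5.83-fold higher (3.84 to 9.17). FOSL1, which encodes the AP-1 subunit FRA1 (no circBase ID, chromosome 11, 65661484 to 65664477, minus strand), had 59, 135 and 266, 5.26-fold higher (3.95 to 7.10).

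The lowest ratios in that set were those of the developmental transcription factors MEIS3 and RUNX1. MEIS3, a homeobox factor (hsa_circ_0003449, chromosome 19, 47919908 to 47920607, minus strand), had 290 SV-HUC-1, 53 J82 and 13 T24 reads, 19.1-fold lower in T24 (11.01 to 36.4). RUNX1 (hsa_circ_0002360, chromosome 21, 36206706 to 36231875, minus strand) had 288, 23 and 19, 13.0-fold lower (8.17 to 21.9). All 6 circRNAs of RUNX1 that were compared were at least 2-fold lower, with a median log2 fold of -3.76. The next were 5.70- to 6.60-fold lower and came from KIAA1841, CRAMP1L, PHF7, RAB11FIP1, ARHGAP32 and NUP153. RAB11FIP1 acts in endosome recycling and NUP153 lines the nuclear pore. NUP153 (hsa_circ_0007268) had 113 SV-HUC-1, 40 J82 and 17 T24 reads, and ARHGAP32 (hsa_circ_0005027) had 94, 13 and 14.

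Of the 10 with the most reads over both libraries, 3 were at least 2-fold higher in T24, 2 at least 2-fold lower and 5 within 2-fold, beside 48.7% past 2-fold over all compared. CDYL, of a chromodomain protein (hsa_circ_0008285), was 2.65-fold lower (2.38 to 2.95) with 1428 SV-HUC-1, 1311 J82 and 462 T24 reads. TRIO, of a guanine nucleotide exchange factor (hsa_circ_0005260), had 653, 390 and 161 and was 3.48-fold lower (2.92 to 4.16). LPAR1, a receptor for lysophosphatidic acid (hsa_circ_0087960), had 208, 553 and 862 and was 4.83-fold higher (4.15 to 5.65). PVT1, a long noncoding RNA gene (hsa_circ_0001821), and HIPK3, a kinase (hsa_circ_0000284), were 2.89- and 2.38-fold higher.

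Within 2-fold stood DLG1, a polarity scaffold (hsa_circ_0008500), at a ratio of 1.96 (1.71 to 2.26), and SETD3, a methyltransferase of actin (hsa_circ_0000567), at 1.48 (1.29 to 1.70). UBAP2 (hsa_circ_0001847) and CAMSAP1, of microtubule minus ends (hsa_circ_0001900), stood at 1.19 (1.04 to 1.37) and 1.15 (1.04 to 1.27). RARS, an aminoacyl-tRNA synthetase (hsa_circ_0001550), was 1.53-fold lower (1.34 to 1.75). On the reported scaling none of these intervals took in 1. Under median-of-ratios scaling, which shifts every log2 fold by -0.07, the lower limits for CAMSAP1 and UBAP2 fell under 1.

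There were 348 host genes with at least 3 circRNAs compared. In 19 of them all were at least 2-fold higher in T24, in 26 all were at least 2-fold lower, in 57 at least 1 stood past 2-fold in each direction, and in 56 none was past 2-fold. CircRNAs of 1 gene share a transcript and often an exon boundary, so they are not independent. Summed over all listed circRNAs of a gene, 490 (18.7%) of 2616 host genes stood 2-fold higher or more and 579 (22.1%) stood 2-fold lower or more.

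DOCK4 had 5 circRNAs compared, with log2 folds of 1.97 to 4.25, and its host gene total was 16 SV-HUC-1, 1 J82 and 158 T24 reads (11.5-fold higher, 6.88 to 20.6). SEMA3C had 4, with log2 folds of 2.24 to 3.78, and a total of 27, 283 and 260 reads (11.2-fold, 7.54 to 17.4). TTC28, a tetratricopeptide repeat protein, had 4 and a total of 2, 38 and 115 reads, a ratio of 67.1 (18.1 to 560). A further circRNA that lies between those of TTC28 on the same strand, hsa_circ_0006776 (chromosome 22, 28910744 to 28915308), had no host gene in the table and is named for TTC28 in its circBank ID. It had 0 SV-HUC-1, 15 J82 and 59 T24 reads. The 3 circRNAs of B3GNTL1, a glycosyltransferase-like gene, had 1, 0 and 1 SV-HUC-1 reads against 21, 19 and 48 T24 reads.

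Among host genes lower throughout, COL5A1, a type V collagen chain, had 7 circRNAs compared with 10 to 47 SV-HUC-1 reads each and none from T24. Of these, 4 share the start 137619111 on chromosome 9. MID1, a microtubule-binding ubiquitin ligase, had 176 SV-HUC-1, 148 J82 and 6 T24 reads for hsa_circ_0007933, 25.2-fold lower in T24 (11.3 to 69.5). Its hsa_circ_0007718 and hsa_circ_0002415 had 39 and 15 SV-HUC-1 reads and 0 T24 reads. FGFR2, a receptor for fibroblast growth factors, had 3 with 36, 32 and 12 SV-HUC-1 reads, 2, 6 and 6 J82 reads and 0 T24 reads. MYO5B, a motor of apical vesicles, had 3 with 39, 24 and 11 SV-HUC-1 reads, 14, 2 and 2 J82 reads and 0 T24 reads. GRHL2 had 292, 29 and 25 SV-HUC-1 reads, 84, 9 and 53 J82 reads and 0 T24 reads.

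**Figure D3:**
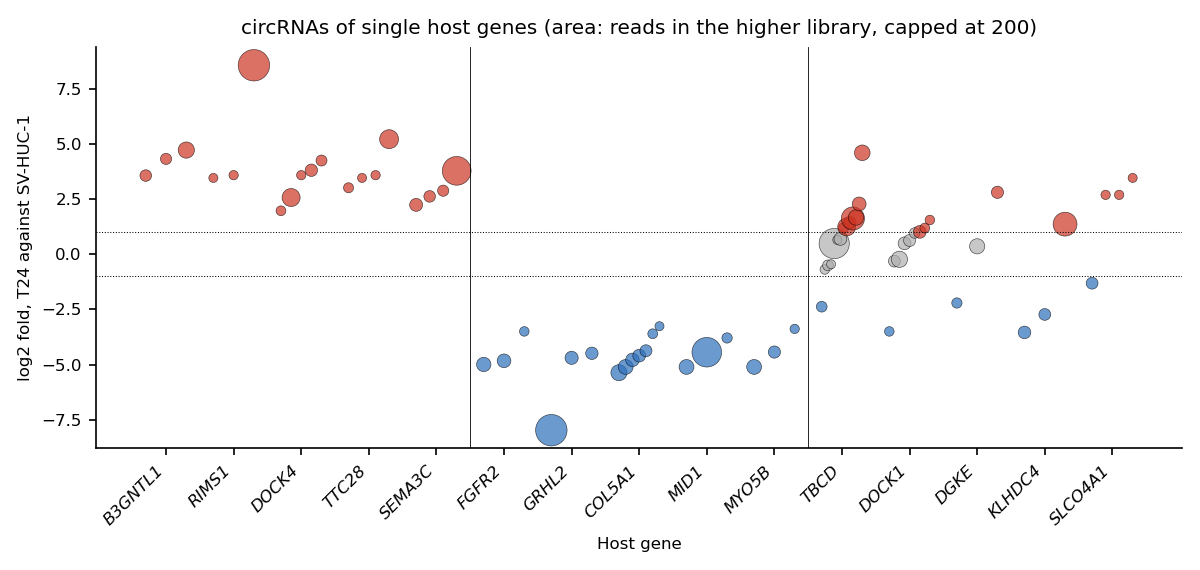
Log2 fold (T24 against SV-HUC-1) of each circRNA compared, for the 5 host genes with the highest median among those all higher, the 5 with the lowest among those all lower, and the 5 with the widest gap between directions, separated by vertical lines. Point area follows reads in the higher library up to 200, and dotted lines mark 2-fold. TBCD spans from -2.38 to 4.60, while FGFR2, GRHL2, COL5A1, MID1 and MYO5B lie below -3 throughout.

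Opposite directions within a gene were widest in TBCD, a cofactor that folds tubulin. Of its 14 circRNAs compared, 7 were at least 2-fold higher, 1 at least 2-fold lower and 6 within 2-fold. Among those that share the end 80869665 on chromosome 17, 2 stood furthest apart. The one that starts at 80842020 (hsa_circ_0004382) had 1 SV-HUC-1, 8 J82 and 44 T24 reads, a ratio of 51.3 (8.74 to 2072). The one that starts at 80851422 (hsa_circ_0046557) had 17, 10 and 2 and was 7.29-fold lower (1.73 to 65.0). The most abundant, hsa_circ_0000818, had 153, 169 and 184 reads, a ratio of 1.40 (1.13 to 1.75).

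DGKE, a diacylglycerol kinase, gave 2 circRNAs that share the start 54926056 on chromosome 17 and end at 54933986 and 54934026. The first (hsa_circ_0000786) had 37 SV-HUC-1, 36 J82 and 41 T24 reads, and the other (hsa_circ_0003108) had 3, 9 and 24. Their ratios were 1.29 (0.808 to 2.07) and 9.33 (2.83 to 48.4). Another circRNA of DGKE, hsa_circ_0044708, had 15, 6 and 2 reads and was 6.43-fold lower in T24 (1.496 to 57.95). KLHDC4, a kelch domain protein, had hsa_circ_0000724 at 50, 49 and 112 reads (2.61-fold higher, 1.86 to 3.72) and hsa_circ_0040787 at 26, 1 and 1 (22.3-fold lower, 3.66 to 914). In DOCK1, a Rac activator, the circRNA that was lower had 12 SV-HUC-1 and 0 T24 reads. In SLCO4A1, an organic anion transporter, 3 were higher with 0 or 1 read in SV-HUC-1 and 10 or 11 in T24.

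Over all host genes there were 1163 pairs of compared circRNAs that share exactly 1 end. Both were at least 2-fold higher in 95 pairs and both at least 2-fold lower in 173. They pointed past 2-fold in opposite directions in 30 pairs, 1 of the pair was past 2-fold in 439 and neither in 426. The pairs came from 533 host genes, and a circRNA can enter several pairs, so they are not independent. Of single circRNAs compared, 21.4% were higher and 27.3% lower.

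All 8 circRNAs of epithelial transcription factors and splicing regulators, from 5 host genes of a list of 20, were at least 2-fold lower, with a median log2 fold of -4.09 beside -0.14 over all circRNAs compared, and 6 of them had 0 reads in T24. ESRP1, which controls epithelial splicing (hsa_circ_0084927), had 37 SV-HUC-1, 33 J82 and 0 T24 reads. TFAP2A, an epidermal transcription factor, had 12, 4 and 0. PPARG, a nuclear receptor of urothelial differentiation, had 14, 26 and 0 (hsa_circ_0007278) and 18, 6 and 6. RXRA, its dimer partner, had 12, 19 and 4. The counting intervals of the second circRNA of PPARG and of RXRA took in 1. All 8 reached the minimum through SV-HUC-1 alone, so their direction was in part fixed by it: of the 1298 such circRNAs 68.9% were at least 2-fold lower, beside 27.3% over all compared.

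CircRNAs are a narrow check of these lines' identity, since 13 of the 19 urothelial and epithelial marker genes, all uroplakins and the keratins KRT5, KRT8, KRT18, KRT19 and KRT20 among them, had no listed circRNA. The other 6 (CDH1, EPCAM, ESRP1, GRHL2, KRT7 and PPARG) were read in both SV-HUC-1 and J82, 552 and 359 times in all. GRHL2 alone held 371 and 182 of these reads. In T24 the 6 genes summed to 28 reads, of which PPARG held 25 and KRT7 3. KRT7 had 7 in SV-HUC-1, and its counting interval took in 1 (0.083 to 2.19). Of 16 markers of blood, endothelial, muscle and fibroblast cells, FLI1 alone was listed, with 33 SV-HUC-1, 11 J82 and 44 T24 reads.

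Every list from here on is read against 21.4% higher and 27.3% lower over all compared. For circRNAs with 10 reads in both libraries the shares were 11.5% and 9.00%. Of 28 circRNAs from 12 host genes of junctions and polarity, 7 were higher and 14 lower, with a median log2 fold of -1.02. Of the 14, 12 reached the minimum through SV-HUC-1 alone. Among the 12 of the list with 10 reads in both libraries, 3 were higher and 2 lower, with a median of 0.13. The lower ones came from MYO5B, EPCAM, LLGL2, ST14, PLEKHA7, CDH3, INADL, CTNNA1, MPP5 and DLG1. EPCAM, an adhesion molecule, had 23 and 22 SV-HUC-1 reads, 7 and 1 J82 reads and 0 T24 reads. CTNNA1, or alpha-catenin, had 49, 22 and 14 (hsa_circ_0007440), 3.00-fold lower (1.63 to 5.89). The higher ones came from DLG1, PARD3 and MAGI3. DLG1 had hsa_circ_0001383 at 97, 185 and 211 reads (2.54-fold, 1.99 to 3.26) and hsa_circ_0008583 at 57, 99 and 145 (2.97-fold, 2.17 to 4.11). With these abundant circRNAs of DLG1 in it, the summed CPM of the list was 1.48 times as high in T24, against the direction of the median.

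Of 14 circRNAs from keratin, laminin and integrin genes, 3 were higher and 9 lower, with a median log2 fold of -2.48. All 9 reached the minimum through SV-HUC-1 alone. Of the 2 with 10 reads in both libraries, 1 was higher and 0 lower, with a median of 0.58. ITGB6, an integrin subunit of epithelia, had 4 compared, with 227, 22, 20 and 10 SV-HUC-1 reads, 51, 7, 3 and 0 J82 reads and 1, 0, 0 and 0 T24 reads. LAMA3, of the epithelial basement membrane laminin, had 81 and 16 SV-HUC-1 reads, 4 and 2 J82 reads and 0 T24 reads. ITGB4, of hemidesmosomes, had 10, 7 and 0. LAMA5, another laminin chain, went the other way in part, with 11 and 24 reads and 9 and 21 reads (hsa_circ_0061082, ratio 2.72, 1.19 to 6.75) beside 25 and 20 for hsa_circ_0061099. NID1, nidogen, which links laminin to collagen, had 1 read in SV-HUC-1 and 13 in T24.

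The start regions of ITGB6, LAMA3 and MYO5B, whose compared circRNAs were all lower, are shown beside that of DOCK4, whose were all higher. They were chosen after their values were seen, as genes with 1 start window in the table (RefSeq, GRCh38.p14, 250 bases before to 50 after the start, gene strand). Capitals mark CAGGTG or its reverse complement CACCTG, the E-box that ZEB and SNAI repressors are known to bind. The windows lie at chr2:160200223-160200522 (minus strand), chr18:23872770-23873069 (plus), chr18:50195098-50195397 (minus) and chr7:112206350-112206649 (minus).
ITGB6: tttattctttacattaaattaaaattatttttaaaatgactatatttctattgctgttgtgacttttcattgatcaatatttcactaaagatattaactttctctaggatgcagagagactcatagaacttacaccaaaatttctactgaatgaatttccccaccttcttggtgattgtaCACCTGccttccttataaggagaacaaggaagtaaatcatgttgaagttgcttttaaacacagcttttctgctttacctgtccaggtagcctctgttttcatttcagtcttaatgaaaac
LAMA3: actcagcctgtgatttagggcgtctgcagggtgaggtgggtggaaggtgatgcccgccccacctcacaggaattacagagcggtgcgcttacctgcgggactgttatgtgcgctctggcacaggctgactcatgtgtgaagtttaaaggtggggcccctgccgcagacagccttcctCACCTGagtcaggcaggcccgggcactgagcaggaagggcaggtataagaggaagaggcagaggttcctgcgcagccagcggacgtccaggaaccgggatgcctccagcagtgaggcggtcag
MYO5B: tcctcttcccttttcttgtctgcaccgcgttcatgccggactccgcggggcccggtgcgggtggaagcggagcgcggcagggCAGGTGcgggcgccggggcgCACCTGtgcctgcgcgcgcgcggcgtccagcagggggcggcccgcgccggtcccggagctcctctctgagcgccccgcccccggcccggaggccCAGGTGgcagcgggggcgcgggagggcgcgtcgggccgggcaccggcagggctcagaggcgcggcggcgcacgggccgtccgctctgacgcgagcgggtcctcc
DOCK4: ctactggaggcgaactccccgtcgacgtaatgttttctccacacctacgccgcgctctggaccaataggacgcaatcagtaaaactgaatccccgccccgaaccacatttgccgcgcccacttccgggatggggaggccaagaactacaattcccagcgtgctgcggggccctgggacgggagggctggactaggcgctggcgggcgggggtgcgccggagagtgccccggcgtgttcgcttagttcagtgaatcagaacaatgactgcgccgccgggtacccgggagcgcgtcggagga

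ITGB6 and LAMA3 held the motif at 1 place, MYO5B at 3 and DOCK4 at 0. These examples do not stand for all host genes of their direction: the 3 lower ones shown all held the motif, unlike most windows of such host genes. The letters are common, since 20.6% of all 35116 windows held them. Of host genes with at least 3 circRNAs compared, 26 had all lower. Of these, 22 had a window, and 6 of their 44 windows (13.6%) held the motif. ITGB6 and MYO5B are among the 26, and LAMA3, with 2 compared, is not. Among the 19 all higher, 17 had a window, and 2 of 35 (5.71%) held it. CG dinucleotides numbered 0 in ITGB6, 13 in LAMA3, 47 in MYO5B and 31 in DOCK4. The median was 14 over all windows, 32 over the windows of host genes all lower and 26 over those all higher.

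Of 16 circRNAs from 6 mesenchymal and matrix genes, 1 was higher and 13 lower, with a median log2 fold of -3.47, and 7 of the 13 were those of COL5A1. By SV-HUC-1 alone 12 of the 16 reached the minimum. Of the 3 with 10 reads in both libraries, 1 was higher and 1 lower (median -0.72), and with no minimum the median of the list was -1.62. FN1, fibronectin, had 19, 14 and 15 SV-HUC-1 reads, 0, 0 and 5 J82 reads and 0, 0 and 4 T24 reads. TNS3, a tensin of focal adhesions (hsa_circ_0006229), had 70, 106 and 5, 12.0-fold lower in T24 (4.91 to 38.1). ROR1, a receptor of Wnt ligands, was 6.002-fold (2.34 to 19.6) and 3.16-fold (1.80 to 5.89) lower at its 2 circRNAs. LTBP2, which binds matrix fibrils, was the higher one, with 16, 4 and 32 reads. ZEB1, the E-box repressor, had no circRNA that reached the minimum, and its listed circRNAs summed to 2 SV-HUC-1, 7 J82 and 16 T24 reads, a ratio of 9.33 (2.19 to 83.6).

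**Figure D4:**
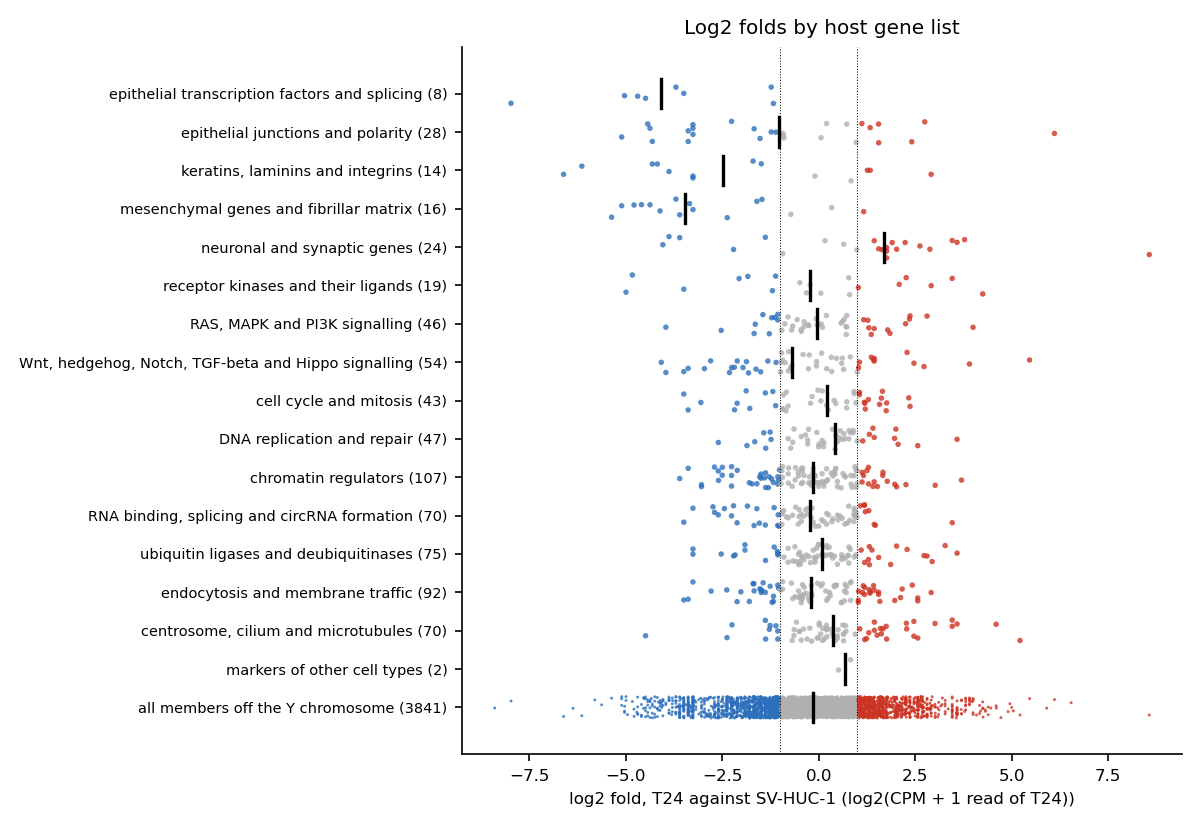
Log2 fold of each circRNA compared (points) in 16 lists of host genes and over the 3841 circRNAs off the Y chromosome, with the median as a black bar and dotted lines at 2-fold. The number of circRNAs is in parentheses. The medians of the epithelial transcription factor, keratin and laminin, and mesenchymal lists lie below -2, that of the neuronal list is 1.70, and the medians from RAS, MAPK and PI3K to centrosome and cilium genes lie between -0.70 and 0.42.

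Of 24 circRNAs from 8 neuronal and synaptic genes, 15 were at least 2-fold higher and 5 lower, with a median log2 fold of 1.70. Of the 15, 13 reached the minimum through T24 alone. Of the 6 with 10 reads in both libraries, 2 were higher and 0 lower (median 0.82). As host gene totals, 4 of 9 were higher and 2 lower, with a median of 0.64. RIMS1, from the series title, gave 3 of the 15 and SEMA3C 4. SEMA5A, a transmembrane semaphorin, and NTN4, a netrin, were lower, with host totals of 44 SV-HUC-1, 108 J82 and 0 T24 reads, and of 18, 12 and 0.

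Receptor kinases and their ligands had 6 of 19 (31.6%) higher and 7 (36.8%) lower, with a median log2 fold of -0.22. Of the 10 with 10 reads in both libraries, 2 were higher and 2 lower (median -0.084). FGFR2 was lower as above. IGF1R, the receptor for insulin-like growth factor (hsa_circ_0005035), had 189 SV-HUC-1, 120 J82 and 38 T24 reads (4.26-fold lower, 3.00 to 6.21). MET, the hepatocyte growth factor receptor (hsa_circ_0082002), had 39, 15 and 14. LPAR1, on this list though no kinase, gave 3 of the 6 higher, among them hsa_circ_0003611 with 9, 41 and 165 reads. The others were NRG1, a ligand of ERBB receptors, with 1, 31 and 13, MERTK with 0, 0 and 10, and hsa_circ_0043469 of ERBB2 with 24, 8 and 43. A second circRNA of ERBB2, hsa_circ_0007766, had 89, 80 and 61 reads, a ratio of 0.799 (0.567 to 1.12).

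In the signalling lists, 12 of 46 circRNAs of RAS, MAPK and PI3K genes (26.1%) were higher and 10 (21.7%) lower. These lie near the shares over all compared, and the median log2 fold was -0.052. SPRED1, an inhibitor of RAS signalling, had a host total of 1 SV-HUC-1, 3 J82 and 27 T24 reads, a ratio of 31.5 (5.19 to 1289). MAP3K5, a stress-activated kinase, had 18, 74 and 98 (6.35-fold higher, 3.82 to 11.2). Of 54 from Wnt, hedgehog, Notch, TGF-beta and Hippo genes, 11 (20.4%) were higher and 17 (31.5%) lower (median -0.70). Among the 24 with 10 reads in both libraries, 4 were higher and 1 lower (median -0.15). AMOTL1, an angiomotin that binds YAP, had a host total of 172, 57 and 17 and was 8.68-fold lower (5.26 to 15.2), and FAT1, a giant protocadherin, had 10, 11 and 46.

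Cell cycle genes had 13 of 43 (30.2%) higher and 10 (23.3%) lower (median 0.20). Of the 17 with 10 reads in both libraries, 1 was higher and 2 lower (median 0.092). With at least 20 reads in either library, 3 of 20 were higher and 5 lower. DNA replication and repair genes had 9 of 47 (19.1%) higher and 7 (14.9%) lower (median 0.42). Of their 24 with 10 reads in both libraries, 2 were higher and 2 lower (median 0.13). NUSAP1, a spindle protein, had a host total of 23 SV-HUC-1, 78 J82 and 63 T24 reads (3.19-fold higher, 1.95 to 5.40). CDK14, a cyclin-dependent kinase, had 148, 85 and 26 (4.88-fold lower, 3.20 to 7.72). PRKDC, the DNA-dependent protein kinase, had 7, 16 and 36 and was 5.998-fold higher (2.63 to 16.0), with each of its 7 listed circRNAs under the minimum.

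Chromatin regulators had 17 of 107 (15.9%) higher and 30 (28.04%) lower, with a median of -0.15, close to the -0.14 over all. JARID2, a partner of Polycomb complex 2, had 5 circRNAs compared, all lower, and a host total of 96, 48 and 5 (16.5-fold lower, 6.81 to 51.9). KAT6B, a histone acetyltransferase, was 3.82-fold higher (1.90 to 8.31) and DOT1L, a histone methyltransferase, 3.68-fold (1.93 to 7.48). RNA binding and splicing genes had 8 of 70 (11.4%) higher and 18 (25.7%) lower (median -0.24). Of their 41 with 10 reads in both libraries, 1 was higher and 6 lower (median -0.093). Among these genes MSI2, a regulator of translation, had a host total of 18 SV-HUC-1 reads and 0 from J82 and T24. RBFOX2, a splicing factor, had 10, 7 and 0. As host gene totals, 3 of 33 were higher and 7 lower. Of the higher ones, ZC3H13 had 4, 7 and 13 and XRN1 3, 10 and 10, with no circRNA of either at the minimum.

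Ubiquitin ligases and deubiquitinases had 15 of 75 (20%) higher and 12 (16%) lower (median 0.088). Of the 38 with 10 reads in both libraries, 1 was higher and 1 lower (median 0.051). UBR1, a ligase of the N-degron pathway, had a host total of 5, 27 and 55 (12.8-fold higher, 5.18 to 41.1), and TRIM2, a ligase, 37, 54 and 4 (7.93-fold lower, 2.85 to 30.6). Endocytosis and membrane traffic genes had 22 of 92 (23.9%) higher and 23 (25%) lower, near the shares over all (median -0.19). As host gene totals, 5 of 45 were higher and 4 lower. EXOC6B, of the exocyst, had 434, 474 and 132 (2.82-fold lower, 2.32 to 3.45) and STX6, a SNARE protein, 195, 226 and 65 (2.57-fold lower, 1.93 to 3.46), each lower in T24 than in both other lines. LRP6 had 18, 45 and 51 (3.30-fold higher, 1.90 to 6.01) and SNX25 33, 461 and 81 (2.86-fold higher, 1.89 to 4.43). Centrosome, cilium and microtubule genes had 23 of 70 (32.9%) higher, beside 21.4% over all compared, and 10 lower (median 0.37). Among the 41 with 10 reads in both libraries, 8 were higher, beside 11.5% of all such circRNAs, and 0 lower (median 0.21). TTC28 alone gave 4 of the 23. TBCE, another tubulin cofactor, had a host total of 3, 19 and 28, a ratio of 10.9 (3.36 to 55.9). Each of its 5 listed circRNAs was under the minimum, so none is among the 70. MAP7, which recruits kinesin, had 25, 14 and 0.

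By chromosome, medians ran from -0.58 on chromosome 10 to 0.66 on chromosome 4. Chromosome 4 had 47 of 126 circRNAs higher and 17 lower, and chromosome 11 had 61 of 194 higher and 34 lower (median 0.37). Chromosome 5 had 33 of 239 higher and 88 lower (median -0.55), and chromosome 18 had 10 of 74 higher and 28 lower (median -0.45). With at least 10 reads in both libraries the medians were 0.56 on chromosome 4, 0.41 on chromosome 11, -0.21 on chromosome 5, -0.19 on chromosome 18 and -0.0039 on chromosome 10. The sign of the median differed between these sets on 10 of 23 chromosomes (1, 2, 6, 8, 12, 14, 16, 19, 21 and 22), and on chromosome 6 it went from -0.45 to 0.23. Reads summed over the circRNAs compared were 1.44 times as high in T24, in CPM, on chromosome 4 and 0.749 times on chromosome 5. Gene copy number was not measured, and circRNAs of 1 chromosome share host genes.

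**Figure D5:**
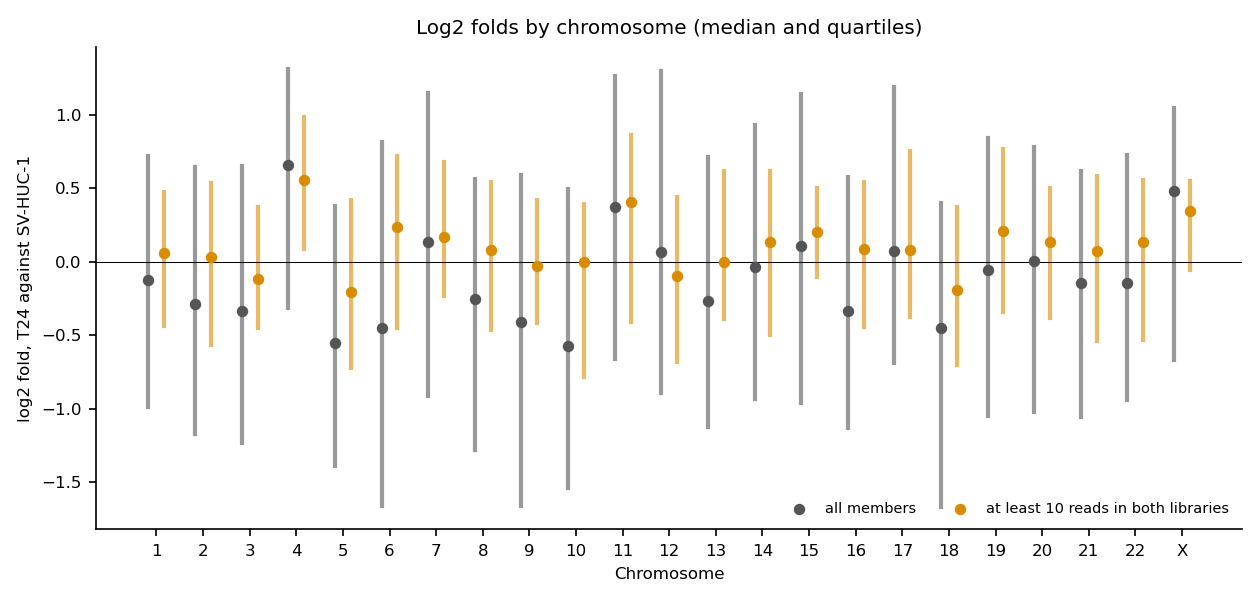
Median (points) and quartiles (bars) of the log2 fold of T24 against SV-HUC-1 on each chromosome, for all circRNAs compared (grey) and for those with at least 10 reads in both libraries (orange). Chromosome 4 lies highest in both sets, at 0.66 and 0.56, and the grey bars are mostly wider than the orange ones.

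Shares also differed by length and cataloguing. CircRNAs whose ends lie at most 500 bases apart had 17.9% higher and 36.5% lower among 285. In the longer classes, 20.7% to 24.4% were higher and 25.4% to 33.3% lower. The 196 circRNAs without a circBase ID had 27.0% higher and 50.5% lower, with a median log2 fold of -1.07, against 21.1% and 26.1% and -0.12 for the 3651 with one. Median reads were 11 in SV-HUC-1 and 6 in T24 for those without an ID and 15 and 13 for those with one. The part of these low counts in the difference was not tested.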

How the data were processed

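RNA was extracted from SV-HUC-1, J82 and T24, and per the labels' protocols a library took 2 μg of RNA as input, ribosomal RNA was depleted, linear RNA was digested with RNase R, and cDNA synthesis kept the strand. The authors deposited 1 table of circRNAs in CPM, named as normalized with TMM factors, on hg19. Per the submitters' processing notes, the tools were STAR, edgeR, RSEM 1.2.15 and Bowtie2 2.1.0, whose roles are not stated. The junction caller, and whether starts count from 0 or 1, are not given in the sources used here. CPM was not scaled for length.

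The 3 columns of values carry the lines' names, 1 of them spelled slightly differently, and 0 stayed unmatched. Every deposited CPM value was a whole multiple of the smallest value above 0 of its column (100%, tolerance 0.01 reads), which gave the reads. Log2 folds used CPM + 0.0234. Ratios have exact 95% counting intervals. Reads carry no molecular identifiers. With 2 libraries and 0 residual degrees of freedom no replicated test was possible, and the exact binomial test, an alternative, compares libraries only. Steps were tested on simulated data. Python 3.11.15, pandas 2.3.3 and scipy 1.17.1 were used.

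The comparison, the lists and the rule for named circRNAs were chosen with earlier results of these data known. That rule took the 15 highest and 15 lowest circRNAs, the 8 highest and 8 lowest with 10 reads in both libraries and the 10 with the most reads. It added, for host genes with 3 or more circRNAs compared, 5 all higher, 5 all lower and 5 in both directions, then up to 2 host genes per direction in each of 17 lists, and the title's genes. Y-linked genes were left out, and 1 circRNA of the rule and 1 list are not reported here. Circular reads of a host gene do not measure its linear RNA. CircRNAs named from the lists beyond that rule were chosen after their values were seen. Of the circRNAs compared, 7 lie on alternative haplotype or unplaced contigs and may share reads with the main chromosomes.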

Additional observations from a re-analysis of the deposited data

How the results depend on the processing

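No paired analysis was possible because each line has 1 library. CircRNAs at least 2-fold higher and lower, 823 and 1051 as reported, numbered 2598 and 2913 with no minimum, 329 and 446 with at least 20 reads in either library, 447 and 535 with 20 over both, 200 and 157 with 10 in both, 490 and 579 as host gene totals, and 298 and 463 at 4-fold. Other settings stayed within 1.5 times. Of those past 2-fold, 43.9% were higher as reported and 56.0% with 10 reads in both. The median log2 fold of -0.14 became -0.081 with no minimum, -0.037 with 20 reads over both libraries, -0.037 as host gene totals and -0.21 under median-of-ratios scaling, which shifted every ratio by -0.07. It turned to 0.088 with 10 reads in both and to 0.058 with 1 CPM minimum for both libraries, the setting chosen after seeing the data.

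Of 118 list medians recomputed, 9 changed sign. With 10 reads in both libraries they were junctions and polarity (0.13, 12 circRNAs), keratins, laminins and integrins (0.58, 2 circRNAs), RAS, MAPK and PI3K (0.10), chromatin regulators (0.088) and membrane traffic (0.078). With no minimum they were RAS, MAPK and PI3K (0.11) and RNA binding (0.18), and with 20 reads DNA repair (-0.048) and membrane traffic (0.10). The other 109 kept their sign. All 154 recomputed ratios of named circRNAs stayed inside their counting intervals under both other scalings. Each scaling shifts every log2 fold by 1 constant (0.016 or -0.07), so this is no separate check of each ratio. Intervals with a lower limit near 1 could still come to take in 1, as for CAMSAP1, UBAP2 and the host total of CCAR1. Depth limits the rare circRNAs: for hsa_circ_0002050 of DOCK1, 6 reads against 13 gave a ratio of 2.53 with an interval that took in 1 (0.896 to 8.11).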
